A study of Mus musculus with 6 samples.

Results

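Enpp1 and 8 other genes that act on extracellular nucleotides and pyrophosphate were examined in 6 bulk RNA-seq libraries of mouse muscle stem cells. The 9 genes are Enpp1, Enpp2, Enpp3, Enpp4, Enpp5, Alpl, Nt5e, Entpd1 and Entpd2. They were taken by symbol from the 49652 gene rows of the count files. Enpp1 was chosen by its measured log2 fold change between the groups in these libraries, and the others were added as members of its enzyme families. Their differences between the groups are therefore given as a description, with no test of the genes themselves. All 9 were among the 18832 genes that passed the filter on low counts.

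The cells were sorted from uninjured hindlimb muscle of mice aged 8 to 10 weeks as positive for alpha-7 integrin and VCAM and negative for Sca1, CD45 and CD31. RNA was taken without culture. All animals had the label OPA1-Pax7-CreERT2 and tamoxifen by gavage on 5 days, with collection 3 days later. Pax7-CreERT2 is a Cre recombinase that tamoxifen switches on in cells that express Pax7, the transcription factor of muscle stem cells. Cre-negative animals make up the group called WT (n = 3 libraries) and Cre-positive animals the group called KO (n = 3 libraries). Cre and the loss of Opa1 thus go together, and no group has Cre alone. The number of animals behind a library is not labelled, so the spread between libraries may be partly technical.

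Enzymes of this set sit on the cell surface or are secreted, and they break down nucleotides outside the cell in steps. Enpp1 splits ATP into AMP and pyrophosphate, an inhibitor of mineral formation, and alkaline phosphatase (Alpl) splits pyrophosphate into phosphate. Entpd1 (CD39) and Entpd2 remove phosphates from ATP and ADP, and Nt5e (CD73) turns AMP into adenosine, which acts on its own receptors. Enpp2 (autotaxin) belongs to the same family by sequence but makes lysophosphatidic acid, a lipid signal.

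Reads counted in genes numbered 41410136 to 56606886 per library. Opa1, the gene that Cre targets, was at 68.2, 31.4 and 68.8 CPM (normalised read counts, scaled by library size) in WT replicates 1 to 3 and at 17.5, 34.4 and 27.1 CPM in KO replicates 1 to 3. WT replicate 2 lay inside the KO range, so it is called the library labelled WT replicate 2, and the log2 fold change of each of the 9 genes is also given without it. For Opa1 an exact permutation test (two-sided, log2 CPM) gave p = 0.200, and 0.100 is the smallest value that 3 against 3 libraries allow. Counts are per gene, so exons outside the deleted part still count. Defining genes of muscle stem cells were present in every library, with Pax7 at 252 to 453 CPM and Vcam1 at 1032 to 1407 CPM, and the 10 markers, led by Chodl and Sdc4, summed to 7368 to 11344 CPM. The libraries also differed within each group. The sum of 10 cell cycle genes was 302, 59.5 and 269.9 CPM in WT, against 673, 62.6 and 55.3 CPM in KO, and the sum of 10 immediate early genes was 15851, 29677 and 5969 CPM in WT, against 12732, 35973 and 32852 CPM in KO. Mki67, a marker of cycling cells, ranged from 0.652 to 78.6 CPM and Fos from 1365 to 8189 CPM. WT replicates 1 and 3 and KO replicate 1 had more cell cycle and less immediate early transcript than the other 3 libraries. Sex-linked transcripts differed between libraries too. Xist was at 355, 0.0209 and 508 CPM in WT replicates 1 to 3, against 401, 393 and 244 CPM in KO. Ddx3y, which is Y-linked, was at 0.0354, 226 and 23.3 CPM in WT, against 0.141, 22.9 and 90.2 CPM in KO. Xist was almost absent from the library labelled WT replicate 2 alone, and Ddx3y was highest there. Ddx3y was almost absent from WT replicate 1 and KO replicate 1, and the remaining libraries held both transcripts. The sex and number of the animals were not tested.

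Enpp1 transcripts were higher in each KO library than in any WT library. Enpp1 stood at 4.68, 2.69 and 3.61 CPM in WT replicates 1 to 3 (raw counts 265, 129 and 193) and at 11.1, 9.14 and 12.1 CPM in KO replicates 1 to 3 (raw counts 555, 379 and 688). The lowest KO library, replicate 2, was well above the highest WT library, replicate 1, and the groups did not overlap. The means were 3.66 ± 0.997 CPM (SD, n = 3) in WT and 10.8 ± 1.52 CPM (SD, n = 3) in KO, or 295% of the WT mean. The log2 fold change (KO minus WT) was 1.56, with an SE of 0.33 and a 95% interval from 0.79 to 2.33. As Enpp1 was chosen by this value, the interval is a description and no test. The log2 fold change was 1.38 without the library labelled WT replicate 2 and at most 1.78 with any other library left out. Within WT, Enpp1 was higher in the 2 libraries with more cell cycle transcript, and within KO it was highest in replicate 3, which had the least. The part of cell cycle state in its level was not tested.

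Enpp3, the next gene of the family on the same chromosome and another nucleotide pyrophosphatase, differed the other way. It was at 3.89, 6.12 and 3.24 CPM in WT (raw counts 220, 293 and 173) and at 2.45, 1.33 and 1.90 CPM in KO (raw counts 122, 55 and 108). All KO libraries lay below all WT libraries, and the KO mean of 1.89 ± 0.562 CPM (SD, n = 3) was 42.9% of the WT mean of 4.41 ± 1.51 CPM (SD, n = 3). This gave a log2 fold change of -1.22 (SE 0.44, 95% interval -2.25 to -0.19), and -0.91 without the library labelled WT replicate 2, which was the highest.

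Entpd2, which takes the outer phosphate from ATP, had the narrowest spread within each group, relative to its mean, of the 9 genes. It was at 40.9, 37.6 and 36.4 CPM in WT, against 24.6, 25.7 and 27.1 CPM in KO, with no overlap. The means were 38.3 ± 2.37 CPM (SD, n = 3) and 25.8 ± 1.30 CPM (SD, n = 3), so KO stood at 67.4% of WT. This gave a log2 fold change of -0.57 (SE 0.15, 95% interval -0.92 to -0.22) and lay between -0.61 and -0.52 when any library was left out (-0.58 without the library labelled WT replicate 2). Exons of Entpd2 overlap those of Npdc1 on the same strand, and reads that fit both genes are not counted for either. Npdc1 itself was at 81.7 ± 13.1 CPM in WT and 77.3 ± 9.82 CPM in KO (SD, n = 3 each), with overlapping groups. In bulk RNA, fewer cells that carry a transcript and less of it per cell cannot be told apart.

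**Figure D1:**
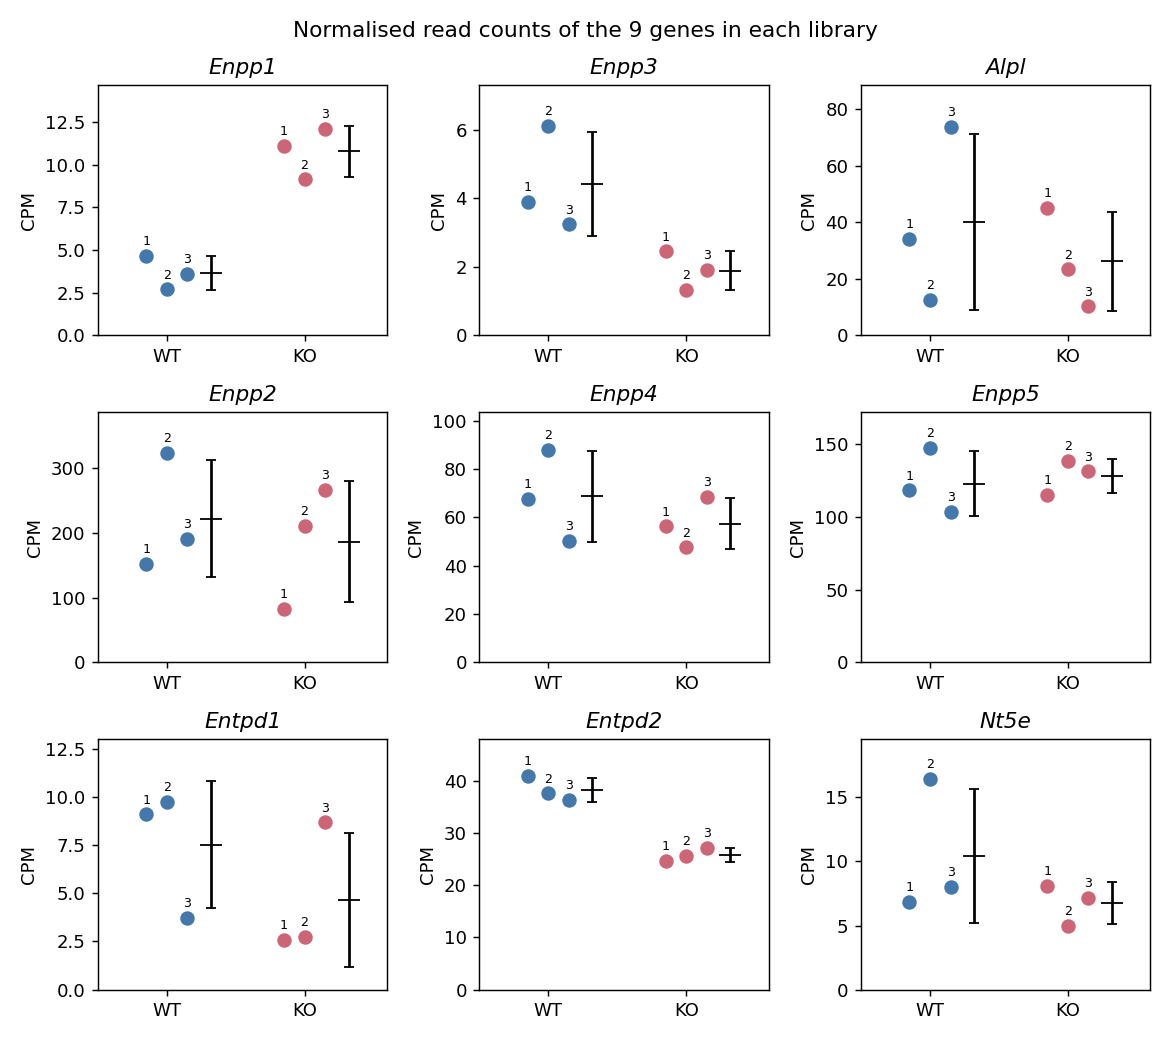
Normalised read counts (CPM, linear axes from 0) of the 9 genes, with 1 point per library numbered by replicate and the mean ± SD of each group (n = 3) beside the points. Enpp1 lies higher in every KO library and Enpp3 and Entpd2 lie lower, while the groups of the other 6 genes overlap.

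Across the 18832 genes tested, the quasi-likelihood test of edgeR called 0 at an adjusted p under 0.05 (0%), so none of the 9 was called. At an unadjusted p under 0.05 there were 393 genes (2.09%). DESeq2 called 20 genes (0.106%), Enpp1 among them and none of the other 8. Groups that do not overlap were found for 3.43% of all genes with KO higher, where Enpp1 is 1 of the 9, and for 3.12% with KO lower, where Enpp3 and Entpd2 are 2 of the 9. Because Enpp1 was chosen on this contrast, nothing is read from these shares or from its call. Of the 9 log2 fold changes, 2 were positive and 7 negative, with a median of -0.57. Over all genes the median was 0.01 and 51.0% were positive.

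The sequences before the start sites of Enpp1, Enpp3 and Entpd2 are shown because these are the 3 genes whose groups did not overlap. Each is the 250 bases before the annotated start, 5′ to 3′, from RefSeq on GRCm38.p6, and capitals mark the motif matches described next.
Enpp1, chr10:24712160-24712409, minus strand: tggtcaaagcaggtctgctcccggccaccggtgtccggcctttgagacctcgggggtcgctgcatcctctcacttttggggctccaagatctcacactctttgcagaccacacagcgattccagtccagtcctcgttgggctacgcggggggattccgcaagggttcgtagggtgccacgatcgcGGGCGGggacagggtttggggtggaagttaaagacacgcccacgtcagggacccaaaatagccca
Enpp3, chr10:24836196-24836445, minus strand: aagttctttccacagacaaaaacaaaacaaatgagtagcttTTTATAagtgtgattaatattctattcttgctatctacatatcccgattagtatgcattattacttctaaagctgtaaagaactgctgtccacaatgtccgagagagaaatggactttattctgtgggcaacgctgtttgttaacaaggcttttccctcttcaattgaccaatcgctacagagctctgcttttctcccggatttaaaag
Entpd2, chr2:25395624-25395873, plus strand: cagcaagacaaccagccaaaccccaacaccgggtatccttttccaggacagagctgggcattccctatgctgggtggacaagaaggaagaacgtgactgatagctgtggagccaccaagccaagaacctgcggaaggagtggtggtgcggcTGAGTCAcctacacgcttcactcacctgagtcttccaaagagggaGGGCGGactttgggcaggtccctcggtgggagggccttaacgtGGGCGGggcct
RefSeq start sites were found for 7 of the 9 genes. For Enpp3 the RefSeq start lies inside the longer gene model of GENCODE, so its stretch is upstream in RefSeq only. Motifs were searched on both strands. The GC box was searched as GGGCGG and the TATA box as TATAAA. An E-box was searched in the form CACGTG, bound by clock factors, and in the form CAGCTG, bound by myogenic factors. The AP-1 motif was searched as TGANTCA, in which N is any base. The Enpp1 stretch holds 17 CG dinucleotides, more than 76.5% of the 32851 RefSeq promoters of the same length, and 1 GC box, which 32.7% of promoters hold. The Enpp3 stretch holds 5 CG dinucleotides against a median of 6 over all promoters, and its only match is a TATAAA on the opposite strand, whose leftmost base as printed lies 209 bases before the start (12.4% of promoters hold that motif). The Entpd2 stretch has 9 CG dinucleotides, 2 GC boxes and an AP-1 match, the last held by 6.75% of promoters. Neither E-box is in these 3 stretches (CACGTG is in 6.02% of promoters and CAGCTG in 4271 of the 32851 promoters). These neighbouring family members therefore differ in base composition at their starts, and the matches are letters in a window and no evidence of binding.

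Enpp1 and Enpp3 lie next to each other on chromosome 10 of GRCm38, both on the minus strand, from 24637914 to 24712159 and from 24772406 to 24842823. Within 500 kb of the Enpp1 start, 7 genes passed the filter, a window chosen after the values were seen. Ccn2 (connective tissue growth factor) starts 117 kb below Enpp1 and was at 9.55, 7.08 and 14.5 CPM in WT, against 19.1, 15.3 and 12.9 CPM in KO, with overlapping groups and a log2 fold change of 0.61 (SE 0.33). The noncoding Gm15270, which overlaps Ccn2 on the other strand, was at 4.75, 5.18 and 4.56 CPM in WT, against 7.11, 7.06 and 5.18 CPM in KO. Its log2 fold change was 0.42 (SE 0.30), with KO replicate 3 and the library labelled WT replicate 2 at the same rounded level. The strand setting of the counting is not known, so reads of the overlap cannot be told apart. Beyond Enpp3, Med23, a subunit of the Mediator complex, had 0.14 (SE 0.25; -0.15 to 0.31 with a library left out) and Arg1, the liver-type arginase, 1.05 (SE 0.62) at 0.636 to 2.73 CPM. Moxd1 had -1.30 (SE 1.29) at no more than 0.842 CPM. No other gene of the window had a difference as large relative to its SE as Enpp1 or Enpp3. Because Enpp1 was chosen on this contrast, nothing is read from how it compares with its neighbours.

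**Figure D2:**
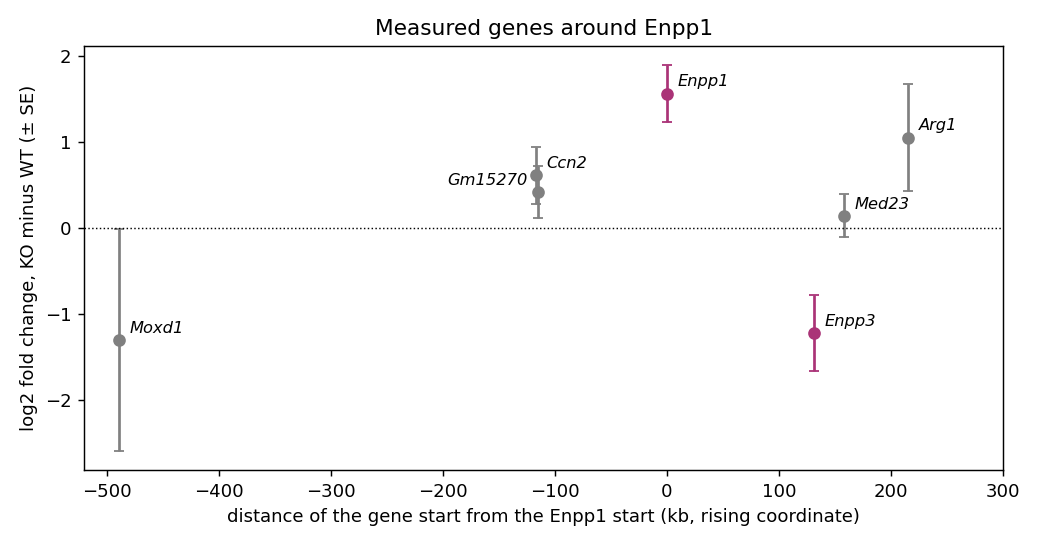
Log2 fold changes (KO minus WT, ± SE) of the 7 measured genes within 500 kb of the Enpp1 start, against the distance of their start sites in kb. Enpp1 at 1.56 and Enpp3 at -1.22 are 131 kb apart and lie on opposite sides of 0.

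The other genes are Enpp2 on chromosome 15 (54838901 to 54952892, minus strand), Alpl on chromosome 4 (137741733 to 137796384, minus), Nt5e on chromosome 9 (88327197 to 88372092, plus), Entpd1 on chromosome 19 (40612366 to 40741602, plus) and Entpd2 on chromosome 2 (25395874 to 25401321, plus), in GENCODE M21 on GRCm38. Levels of different genes are compared per kilobase of annotated exon. On that scale (CPM per kb, mean over the 6 libraries) the order was Enpp2 at 35.4, Enpp5 at 25.8, Entpd2 at 15.1, Enpp4 at 13.8, Alpl at 8.21, Entpd1 at 1.09, Nt5e at 0.998, Enpp1 at 0.705 and Enpp3 at 0.524. Enpp2 and Enpp5 did not differ beyond the spread of Enpp2, which ran from 14.4 to 56.0 CPM per kb, and Entpd2 and Enpp4 overlapped as well, as did Entpd1 and Nt5e. That order is over both groups together, and the place of Enpp1 in it differed between them. In WT Enpp1 had the lowest mean of the set, at 0.357 ± 0.0972 CPM per kb. In KO it stood at 1.05 ± 0.148 CPM per kb (SD, n = 3 each), above the means of Entpd1 (0.834), Nt5e (0.784) and Enpp3 (0.315), although Entpd1 was higher than Enpp1 in KO replicate 3. The ratio of Enpp1 to Enpp3 per kb was 0.707, 0.258 and 0.654 in WT, against 2.67, 4.04 and 3.74 in KO. Per kb, Enpp3 was thus the more abundant in each WT library and Enpp1 in each KO library. The WT order rests on the annotated exon lengths, 10257 bases for Enpp1 and 6017 for Enpp3. In CPM, Enpp1 was above Enpp3 in WT replicates 1 and 3 (4.68 and 3.61 against 3.89 and 3.24), but not in replicate 2. The order of Nt5e and Enpp1 differed between the groups as well. Per kb, Nt5e was at 0.795, 1.91 and 0.933 in WT, above Enpp1 at 0.457, 0.263 and 0.352, and at 0.943, 0.575 and 0.833 in KO, below Enpp1 at 1.09, 0.891 and 1.18. Of the summed level of the 5 Enpp genes per kb, Enpp1 made up 0.246% to 0.686% in WT and 1.16% to 2.09% in KO. Since Enpp1 was chosen on this contrast, its shifts in rank, ratio and share are descriptions only.

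Alpl, whose enzyme removes the pyrophosphate that Enpp1 makes, varied more between libraries than between the groups. It was at 34.2, 12.4 and 73.7 CPM in WT, against 44.9, 23.3 and 10.2 CPM in KO. Its log2 fold change of -0.62 (SE 0.72) turned to 0.16 without WT replicate 3 and was -1.05 without the library labelled WT replicate 2. The 3 libraries with the most Alpl were WT replicates 1 and 3 and KO replicate 1, those with the most cell cycle and the least immediate early transcript, and the part of either in its level was not tested. The ratio of Enpp1 to Alpl per kb was 0.0538, 0.0852 and 0.0193 in WT, against 0.0976, 0.154 and 0.469 in KO. Each KO ratio lay above each WT ratio, and the spread within KO was nearly as large as its mean (0.240 ± 0.200, SD, n = 3). Enpp1 was chosen on this contrast and the Alpl groups overlapped, so nothing is read from the separation of this ratio.

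Enpp2, the source of lysophosphatidic acid, had the highest mean level per kb of the set, though Enpp5 was above it in KO replicate 1. The 3 libraries with the least Enpp2 were the 3 with the most Alpl, though not in reverse order. Enpp2 was at 152, 324 and 190.4 CPM in WT, against 83.0, 211 and 266 CPM in KO. It was lowest in KO replicate 1, and its 3 lowest libraries were those with the most cell cycle and the least immediate early transcript. The part of either in the Enpp2 level was not tested. The log2 fold change was -0.25 (SE 0.45), and it turned to 0.12 without the library labelled WT replicate 2 and to 0.10 without KO replicate 1. Gm26684, a noncoding gene on the other strand whose exons overlap Enpp2, was at 1.98, 5.14 and 3.53 CPM in WT, against 1.04, 3.04 and 3.42 CPM in KO. It was lowest in KO replicate 1 and highest in the library labelled WT replicate 2, as Enpp2 was, and without a known strand setting reads of the pair cannot be told apart.

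Enpp4 and Enpp5 lie next to each other on chromosome 17 (44096308 to 44105809 on the minus strand and 44078813 to 44086567 on the plus strand). Enpp4, which splits dinucleotides such as diadenosine triphosphate, was at 67.6, 88.0 and 50.4 CPM in WT, against 56.3, 47.6 and 68.5 CPM in KO (log2 fold change -0.26, SE 0.24). The Enpp4 value was -0.04 without the library labelled WT replicate 2, which had the most Enpp4. Enpp5 was at 118, 147 and 103 CPM in WT, against 115, 138 and 131 CPM in KO, and the log2 difference of 0.06 (SE 0.17, 95% interval -0.33 to 0.45) was the smallest of the 9, and 0.21 without that library. The groups overlapped in both genes.

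Entpd1 split the libraries without regard to group. It was at 9.09, 9.73 and 3.74 CPM in WT, against 2.57, 2.72 and 8.67 CPM in KO, with a log2 fold change of -0.69 (SE 0.61) that lay between -1.50 and -0.40 when any library was left out (-0.46 without the library labelled WT replicate 2). Endothelial cells are known to carry CD39, and the 10 endothelial markers summed to 197, 204 and 112 CPM in WT, against 110.2, 139 and 203 CPM in KO. The 3 libraries with more Entpd1 were the 3 with more endothelial transcript, and 8 of the 10 markers divided the libraries in that way, while Kdr and Tie1 did not. Pecam1, which encodes the CD31 that the sort selected against, was at 17.4 CPM or more in those 3 and at 4.36 to 7.60 CPM in the others, and Kdr was highest in KO replicate 2 at 6.73 CPM, a library with little Entpd1. Mature fibre markers divided the libraries as Entpd1 did, with sums of 377, 672 and 299 CPM in WT, against 299.7, 308 and 516 CPM in KO. All 10 endothelial markers, of which Tek and Ptprb were the most abundant, had counts in every library. Leukocyte markers summed to 5.64 to 9.27 CPM in WT and 5.12 to 15.9 CPM in KO, with 3 of 10 seen in every library and Ptprc at 0 in 3 libraries (Lyz2 and Cd79a leading). The part of endothelial or fibre transcripts in the Entpd1 level was not tested.

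Nt5e was at 6.84, 16.4 and 8.02 CPM in WT, against 8.11, 4.94 and 7.17 CPM in KO. Highest by far was the library labelled WT replicate 2, and without it the log2 fold change moved from -0.63 (SE 0.42) to -0.14. The other 5 libraries lay between 4.94 and 8.11 CPM, and the groups overlapped.

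**Figure D3:**
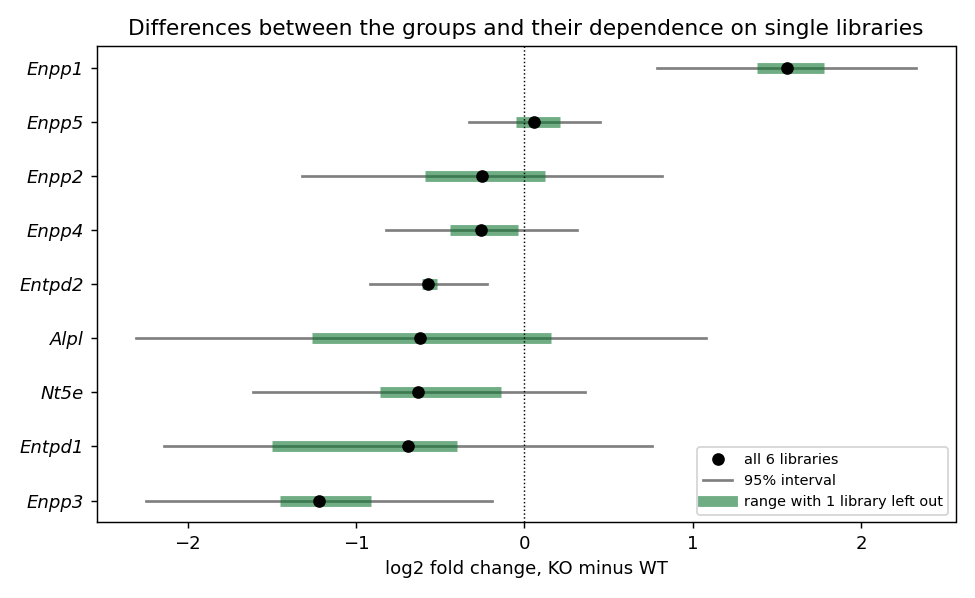
Log2 fold changes (KO minus WT) of the 9 genes with their 95% intervals (grey) and their range when any single library is left out (green). The ranges of Alpl (-1.26 to 0.16), Enpp2 (-0.59 to 0.12) and Enpp5 (-0.05 to 0.21) cross 0, and those of the other 6 do not.

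**Figure D4:**
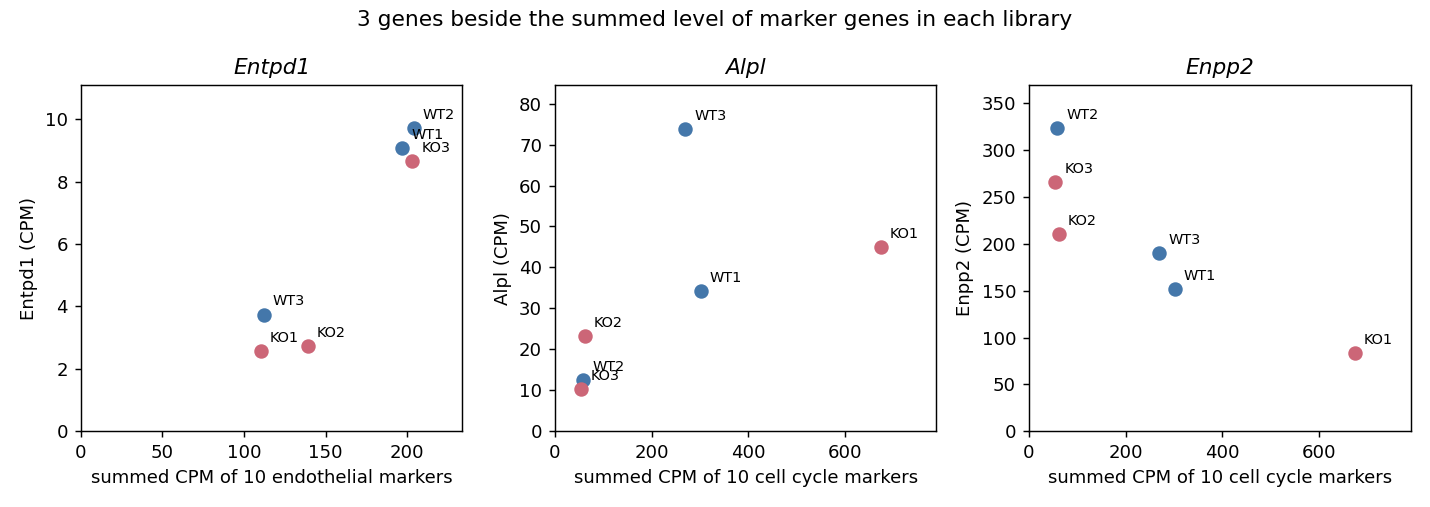
CPM of Entpd1 against the summed CPM of 10 endothelial markers, and of Alpl and Enpp2 against that of 10 cell cycle genes, with 1 labelled point per library. Entpd1 is above 8 CPM in the 3 libraries whose endothelial sum is 197 CPM or more. Alpl is highest and Enpp2 lowest in the 3 libraries whose cell cycle sum is 269.9 CPM or more. Those libraries also had the least immediate early transcript.

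Further genes of the pathway were taken from 7 lists of 80 genes, of which 53 passed the filter. None was called by edgeR (adjusted p 0.99998 for each gene named here), 29 had positive and 24 negative log2 fold changes, and the median was 0.05. KO lay wholly above WT for 3 of them (Entpd6, P2rx3 and Tmem173) and wholly below for 1 (P2ry2), against 3.43% and 3.12% of all genes.

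Other ectoenzymes and their intracellular relatives had 7 positive and 1 negative log2 fold changes among 8 tested (median 0.39, and 0.33 to 0.48 with a library left out), and 9 of the 17 were too low to test. Entpd6, a nucleotidase of the Golgi and the secretory route, was at 8.06, 5.89 and 6.04 CPM in WT, against 9.12, 16.9 and 8.65 CPM in KO (log2 fold change 0.79, SE 0.35), and the value was 0.40 without KO replicate 2. Cant1, a Golgi nucleotidase, was at 24.3 ± 6.88 CPM in WT and 33.0 ± 5.42 CPM in KO (SD, n = 3 each; 0.44, SE 0.25). Phosphate and pyrophosphate transport genes had 3 positive and 5 negative values (median -0.03, and -0.24 to 0.07 with a library left out). Among them Ank, a membrane transporter on which extracellular pyrophosphate depends, was at 48.8, 52.9 and 44.3 CPM in WT, against 44.8, 38.0 and 40.3 CPM in KO (-0.25, SE 0.15). KO replicate 1 and WT replicate 3 lay almost at the same level. Mgp, an inhibitor of calcification, had -0.60 (SE 0.69), with -0.11 without the library labelled WT replicate 2 and -1.05 without WT replicate 3.

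Genes of ATP release had 4 positive and 2 negative values (median 0.10, leave-one-out range -0.07 to 0.23). Both genes with the smallest p there were near the floor of detection, Slc17a9, the vesicular nucleotide transporter, at 0.194 to 1.36 CPM and the connexin Gjb2 at 0 to 2.64 CPM. Receptors for ATP and other nucleotides had 4 positive and 5 negative values (median -0.02, leave-one-out range -0.12 to 0.14), and 6 of the 15 were too low to test. P2ry2, a receptor for ATP and UTP, had 49, 82 and 44 raw counts in WT, against 9, 0 and 1 in KO, so the KO mean was 5.83% of the WT mean at 1.71 CPM or less. P2rx3, an ATP-gated channel, had 0, 0 and 6 raw counts in WT, against 14, 25 and 18 in KO. Both were among the lowest genes that passed the filter on these lists.

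Genes of adenosine had 6 positive and 4 negative values (median 0.06, leave-one-out range -0.09 to 0.15). Pnp, the purine nucleoside phosphorylase, was at 39.4, 78.0 and 69.1 CPM in WT, against 41.7, 129 and 118 CPM in KO (0.63, SE 0.44), and Adora2b, an adenosine receptor, had 0.86 (SE 0.99) and -0.45 without KO replicate 1. Receptors and phosphatases of lysophosphatidic acid, the product of Enpp2, had 1 positive and 6 negative values (median -0.22, with -0.39 without KO replicate 1 and -0.08 without KO replicate 2). Lpar1 was at 125, 137 and 445 CPM in WT, against 106, 158 and 156 CPM in KO (-0.75, SE 0.50), and at 0.10 without WT replicate 3. Lpar6 had -0.23 (SE 0.18).

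Enpp1 also destroys cyclic GMP-AMP, the messenger that Cgas makes on sensing DNA and that STING receives. Of 5 genes listed for this route and for the insulin receptor, 4 were positive and 1 negative (median 0.14, leave-one-out range 0.08 to 0.23). Tmem173, which encodes STING, was at 15.2, 10.1 and 13.3 CPM in WT, against 18.3, 20.9 and 17.1 CPM in KO, with no overlap between the groups. Its log2 fold change was 0.54 (SE 0.23, 95% interval -0.01 to 1.09), with a range of 0.40 to 0.68 when a library was left out. Tbk1, the kinase that STING activates, had 0.17 (SE 0.16) and Cgas 0.14 (SE 0.26; -0.01 to 0.26 with a library left out), with overlapping groups.

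**Figure D5:**
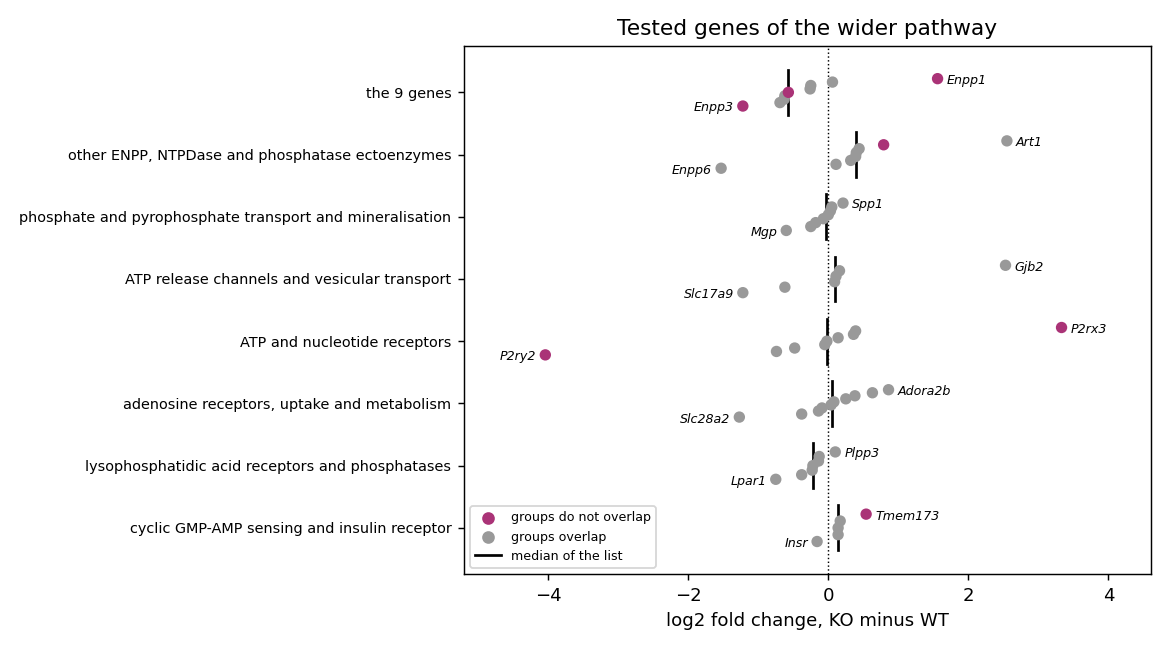
Log2 fold changes (KO minus WT) of the tested genes in the set of 9 and in the 7 lists, 1 point per gene, with list medians as black bars and the genes whose groups do not overlap in purple. The outermost genes of each list are labelled, from P2ry2 at -4.04 to P2rx3 at 3.33, both of which have few counts.

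The genes whose log2 CPM followed Enpp1 most closely over the 6 libraries, among 12611 genes whose mean log2 CPM was 1 or more, were Myo5a, a myosin motor (Pearson r 0.989), Ptbp3, an RNA-binding protein (0.983), Vcpip1, a deubiquitinase (0.961), Pcnx4 (0.959) and Gm3511 (0.958). Like Enpp1, each was higher in all KO libraries, but by less. Ptbp3 was at 53.0, 47.7 and 53.0 CPM in WT, against 70.6, 67.2 and 68.0 CPM in KO (log2 fold change 0.42, SE 0.13), and Myo5a at 24.7, 23.1 and 24.2 CPM in WT, against 31.8, 29.6 and 31.9 CPM in KO (0.38, SE 0.15). In all 5, as in Enpp1, the library labelled WT replicate 2 was the lowest of WT. The genes were picked for following Enpp1, so these shared traits come with that choice and are no separate observation. The correlations rest on 6 libraries, which share the division into groups, and are given as a description.

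The other marker lists bear on the sort. Fibro-adipogenic markers summed to 883 to 1380 CPM in WT and 715 to 912 CPM in KO, with Dpt and Dcn the most abundant. Dpt alone was at 599.7 to 1196 CPM, while Pdgfra was at 0.0241 to 2.56 CPM. Smooth muscle and pericyte markers summed to 769 to 1354 and 777 to 1048 CPM (Acta2 and Notch3 leading). Schwann cell markers summed to 401 to 809 and 615 to 837 CPM (Pmp22 and Mbp). Pmp22 alone was at 356 to 761 CPM, while Sox10 was at 0.0187 to 2.51 CPM. The fibro-adipogenic and Schwann cell sums follow mainly Dpt and Pmp22, so they do not show how many such cells were present. Mature fibre markers summed to 299 to 672 and 299.7 to 516 CPM (Acta1 and Actn3). Tenocyte markers summed to 10.2 to 17.2 and 10.7 to 20.3 CPM (Mkx and Thbs4), and erythroid genes to 99.1 to 423 and 33.0 to 257 CPM (Hbb-bs and Hba-a1). The ranges of WT and KO overlapped in all of these lists, and their part in the levels of the 9 genes was not tested.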

How the data were processed

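Each library's file, as the authors deposited it, holds unnormalised counts for every gene. The submitters' processing notes name HTSeq 0.6.1p2 and STAR 2.6.0c, with trimming by cutadapt 2.5 and Trim Galore 0.5.0, the build GRCm38, and DESeq2 and edgeR. Annotation release and strand setting: not given in the sources used here. The 5 summary rows per file were left out. Symbols, positions and exon lengths came from GENCODE M21 (49399 of 49652 gene rows matched), promoters from RefSeq.

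The contrast KO minus WT was fitted with edgeR 4.0.16, quasi-likelihood test (robust, TMM scaling, the package's filter, no covariate) in R 4.3.3, with Benjamini-Hochberg adjustment over 18832 genes. Fold changes are log2 with a prior count of 0.125, and each standard error is the size of the fold change over the square root of F. CPM is after TMM scaling, and log2 CPM has a prior count of 2. Alternatives were DESeq2 1.42.0, limma 3.58.1 voom, other scalings, no filter, the replicate block and each library left out. Tables and figures used Python 3.11.15, pandas 2.3.3 and matplotlib 3.10.9.

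On simulated counts for KO against WT (18832 genes, dispersion 0.05), 59.6% of genes changed 2-fold and 99.0% of those changed 4-fold were called, with 13 false calls. Genes vary more in the real libraries, where the square root of the common dispersion was 0.524. The simulated rates therefore do not carry over to them.

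The genes and lists were chosen with earlier results of these data known. Named genes are Opa1, the 9 genes, the 2 members of each pathway list that had the smallest p, the 5 genes most like Enpp1, the 2 most abundant markers of each cell type list, Mki67 and Fos. Neighbours of Enpp1, genes that overlap a member, Cgas, Pax7, Vcam1 and Pecam1 were named after their values were seen. So were Ptprc, Pdgfra, Sox10, Kdr, Tie1, Xist, Ddx3y and the untested receptors and enzymes below.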

Additional observations from a re-analysis of the deposited data

How the results depend on the processing

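By edgeR, 0 genes were called in each fit, with all 6 libraries, with either other scaling, without the filter, with the replicate block and with each library left out, and limma voom called 0. DESeq2 called 20 genes (11 higher, 9 lower), among them Enpp1 at 1.56 (adjusted p 0.0103, against 0.99998 by edgeR), and the cause was not tested. Enpp1 was chosen on this contrast, so that p is no support. Enpp1 ranged from 1.38 to 1.78 and Opa1 from -1.38 to -0.87 with a library left out. The count of genes with an unadjusted p under 0.05 was 393, against 864 when no filter was used and more genes were tested, and 252 to 722 with a library left out. With a library left out, these directions turned: Enpp2 to 0.12 at most (lowest -0.59), Enpp5 to -0.05 and -0.01 (highest 0.21), Alpl to 0.16 (lowest -1.26), Adora2b to -0.45 (highest 1.97) Lpar1 to 0.10 (lowest -1.05), Med23 to -0.15 and Cgas to -0.01, and the medians of 4 pathway lists crossed 0. Enpp3 and Entpd2 kept their sign in each fit. Under each scaling, Enpp1 lay wholly above and Enpp3 and Entpd2 wholly below WT. With the replicate block, Enpp1 was at 1.59 and Opa1 at -1.07, and the block changed no call. Equal replicate numbers share only a number: deviations of same-numbered libraries correlated across genes at 0.24, 0.11 and -0.07. For Enpp2, with up to 15499 counts in a library, the spread between libraries limits the precision, but genes such as P2ry2 had few counts. Enpp1 had 129 to 688 counts and Enpp3 55 to 293, and the part of low counts in their spread was not tested.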

Other observations

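Of the 80 further pathway genes, 27 had too few counts to be tested, and several of these had their counts in 1 or 2 libraries. P2ry13, a receptor for ADP, had 35 raw counts in the library labelled WT replicate 2 and 0 in the other 5 libraries, and P2rx2, an ATP-gated channel, had 20 in that library and 0 elsewhere. P2ry6, a receptor for UDP, had 54 there, 39 in KO replicate 2 and 0 in the rest. P2rx1, another ATP-gated channel, had 70 counts in KO replicate 1 and 65 in the library labelled WT replicate 2, against 0 to 10 elsewhere. Phex, an endopeptidase that acts in phosphate control, had 29 counts in KO replicate 2, 190 in the library labelled WT replicate 2 and 1 to 10 in the others. Entpd8, a nucleotidase of the NTPDase family, had 23 counts in KO replicate 2 and 0 in the other 5. Abcc6, the transporter tied to release of ATP and pyrophosphate from liver, had at most 6 counts in a library, and Enpp7, Acpp, Alpi and Adora3 had 0 in all 6.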
